A study of Mus musculus with 10 samples.

Results

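The comparison described here sets mouse embryonic fibroblasts (MEFs, connective tissue cells grown out of embryos) sampled at 2 h against the same kind of cells sampled at 1 h, both from the arm labelled naive. It asks which transcripts start, go on rising or turn down in the second hour of interferon-beta (IFN-β). It rests on 1 library at 1 h and 1 library at 2 h, of 10 libraries in the series, so no difference below has a replicate and no p-value was computed. Of 23370 gene symbols, 12168 reached 1 RPKM (reads per kilobase of transcript, scaled to library depth) in at least 2 of the 10 libraries, and these are the genes compared. At the edge of that filter, 116 genes had their second-highest value between 1 and 1.1 RPKM and 119 had it between 0.9 and 1 RPKM.

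The series profiled RNA at 0, 1, 2, 4 and 6 h in a naive and a pretreated arm, with 1 library for each arm and time. All 10 libraries came from C57BL/6 H3.3-HA knock-in cells, in which a tagged H3.3 cDNA takes the place of H3f3b, one of the genes for this replacement histone. The tag is thus common to every group, and no group has an unaltered H3f3b. The cells grew in DMEM with 10% serum. The labels state IFN-β at 100 U per ml for every sample, and times were taken to run from its addition. The sources used here do not say what the pretreated cells had received, for how long or with what washout. No library is labelled as untreated at 1 or 2 h, so effects of time in culture or of handling cannot be told apart from those of IFN-β. They also do not say whether libraries shared a culture or an embryo.

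As background, IFN-β binds a receptor whose kinases JAK1 and TYK2 phosphorylate STAT proteins. A complex of STAT proteins with IRF9 binds interferon-stimulated response elements, and STAT dimers bind gamma-activated sites. The induced genes include antiviral effectors, such as the IFIT, OAS and MX families, and components of the pathway itself, while SOCS proteins and USP18 dampen receptor signalling. Immediate early genes such as Fos, Junb and Egr1 respond to many stimuli, serum and handling included, and their transcripts are short-lived.

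In the second hour the naive cells gained transcripts of nearly all antiviral families, while a first-hour set that included Socs3, Nr4a1, Cebpd and Junb went back down. Differences are 2 h minus 1 h on log2(RPKM + 1), and a gene was counted as higher or lower at 2-fold or more. By this rule 276 genes, or 2.27% of those tested, were higher at 2 h and 103 (0.846%) were lower, and the median difference of all genes was -0.02. The step from 0 to 1 h, which shares the 1 h library, had 246 higher (2.02%) and 22 lower genes (0.181%). As a scale for 2 single libraries at the same time, pretreated and naive cells were 2-fold apart in 45 genes (0.37%) at 4 h and in 45 (0.37%) at 6 h.

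Both steps together gave 5 main classes. There were 160 genes that began in the second hour, with a first step under 2-fold and a second step up. A further 111 went on rising in both steps, and 103 rose in the first hour and held within 2-fold in the second. Another 32 turned down after a first-hour rise, and 71 fell in the second hour without a 2-fold rise in the first. Of the rest, 5 recovered from a first-hour fall, 0 fell in both steps, 17 fell and held, and 11669 stayed under 2-fold in both. An error in the shared 1 h library would move the 2 steps of a gene in opposite directions, so the classes are a description.

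**Figure D1:**
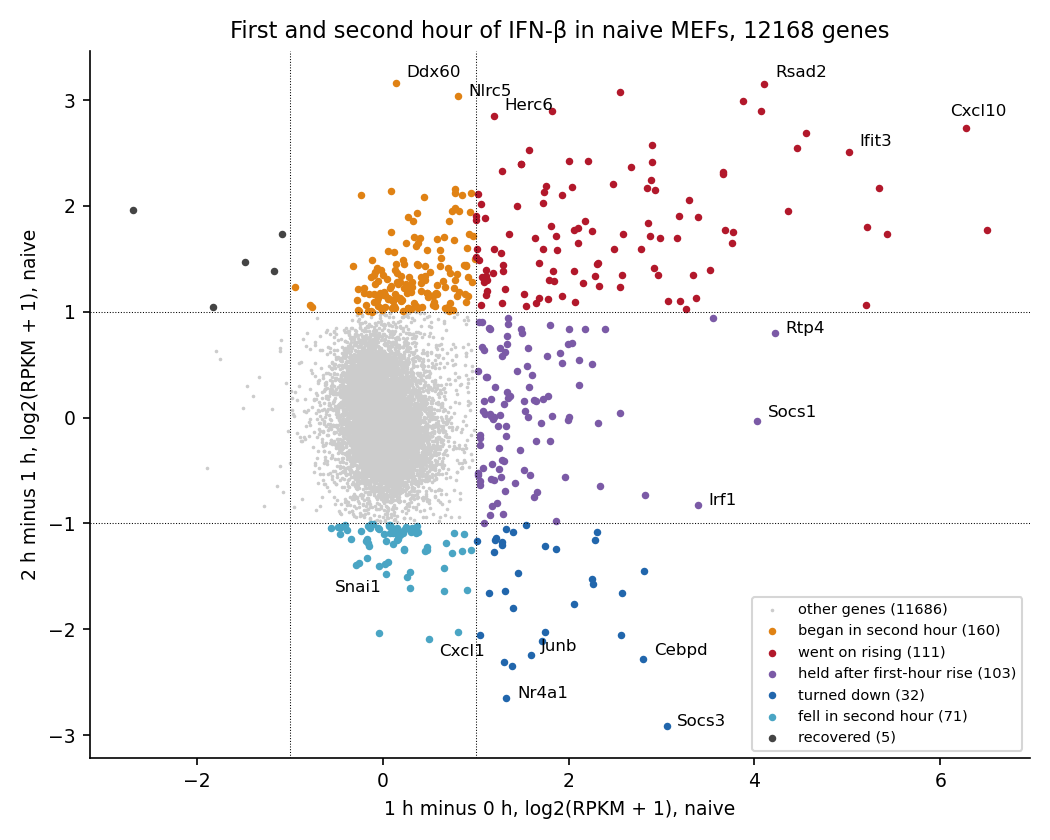
Each point is 1 of 12168 genes, with the step from 0 to 1 h on the x axis and from 1 to 2 h on the y axis, both as differences of log2(RPKM + 1) in naive cells, and dotted lines at 2-fold. Ddx60 lies high with almost no first step on this scale, and Rsad2 and Cxcl10 are high on both axes. Socs1 rose in the first hour and then stayed near 0, and Socs3 lies farthest down on the y axis at -2.91.

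Depth was 151 M counts (M, mega) in the naive 1 h library and 109 M in the 2 h library, within a range of 83.9 to 268 M over the series, and 11669 and 11704 genes reached 1 RPKM in them. The ribosomal precursor Rn45s took 1.51% and 1.12% of the counts. Of the fibroblast markers, 8 of 10 were above 1 RPKM at both times, with summed levels of 10741 and 9799 RPKM. The summed markers of macrophages, endothelium, epithelium, skeletal muscle, neural and lymphoid or dendritic cells stayed between 0.03 and 10.9 RPKM in these 2 libraries. Ptprc, Emr1, Myod1 and Cd3e were at 0 in both. Of the markers that passed the filter, 0 were 2-fold apart. The labelled locus H3f3b stood at 13.8 and 13.2 RPKM, a value that does not tell the tagged cDNA from the endogenous transcript.

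A difference in base composition ran through the 2 libraries. Among genes with a mean of at least 5 RPKM, the median second-hour difference went from 0.42 in the decile of genes with the lowest transcript GC content to -0.42 in the decile with the highest. In pretreated cells the same step went from 0.23 to -0.26, and the naive step from 0 to 1 h from -0.09 to 0.05. Genes that began in the second hour had a median GC content of 45.0% and genes that went on rising 46.2%, against 50.3% for all genes tested, while genes that turned down had 56.3% and genes that fell 56.8%. With each library centred within 20 bins of GC content, an alternative chosen after seeing the data, 210 genes (1.76% of 11913) were higher and 49 (0.411%) were lower. Of the genes with a GC value, 102 of 107 that went on rising and 90 of 150 that began in the second hour were still 2-fold higher. Of those that turned down 19 of 30 were still 2-fold lower, and of those that fell 26 of 68. The part of the GC trend in single genes was not tested, so the GC-centred difference is given for most named genes whose call it changes. For Mx2, Fosl1 and Fosl2 only the loss of the call is stated.

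**Figure D2:**
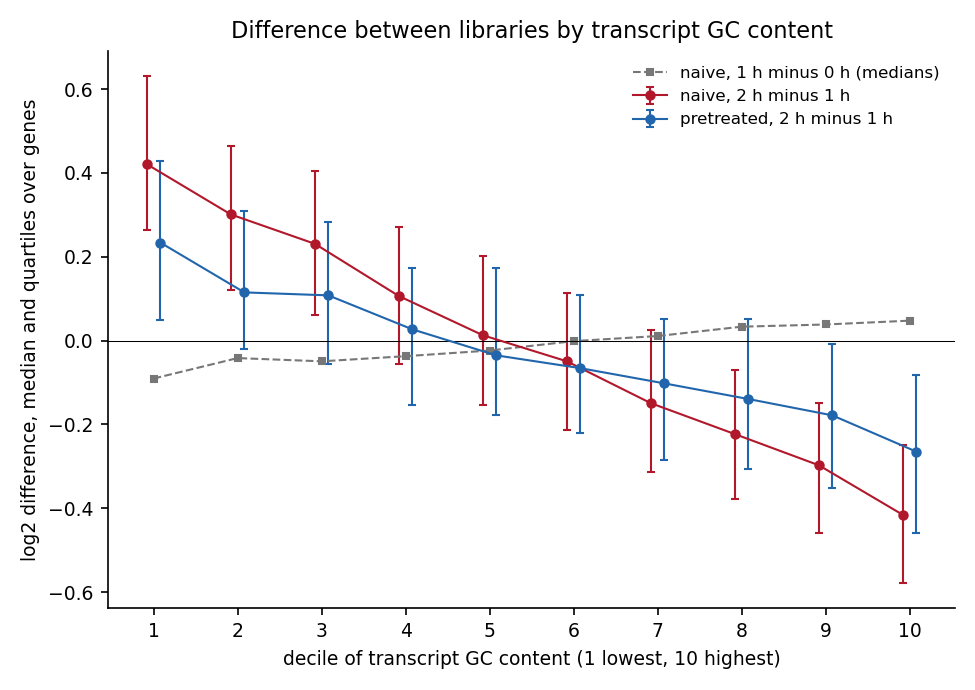
Median log2 difference, with bars from the lower to the upper quartile, over genes in deciles of transcript GC content (x axis, lowest to highest), for the second hour in naive and pretreated cells and, as medians, for the first hour in naive cells. The naive second-hour medians go from 0.42 down to -0.42, the pretreated ones from 0.23 to -0.26, and the first-hour medians stay between -0.09 and 0.05.

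The promoters of 8 genes are shown as examples: 3 that went on rising (Ifit3, Isg15, Gbp2), 1 that began in the second hour (Ddx60), 2 that held (Socs1, Irf1) and 2 that turned down (Socs3, Sbno2). All 8 hold at least 1 of the matches marked below, so they do not show how common these are in a class. The shares by class follow the sequences. Each is a stretch of 100 bases upstream of the RefSeq start, from build GRCm38.p6, written 5′ to 3′ on the gene's own strand. Capitals mark matches on either strand to GAAA, any 2 bases and GAAA again, the core of an interferon-stimulated response element, which reads TTTC, any 2 bases and TTTC from the other strand, or to TTCNNNGAA, the letters of a gamma-activated site, which read the same on both strands.
Ifit3, chr19:34583359-34583458, plus strand: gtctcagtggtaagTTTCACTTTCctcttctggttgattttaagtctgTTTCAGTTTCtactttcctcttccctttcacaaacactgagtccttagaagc
Isg15, chr4:156200839-156200938, minus strand: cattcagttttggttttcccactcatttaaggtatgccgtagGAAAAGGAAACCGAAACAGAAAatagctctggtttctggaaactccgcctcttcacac
Gbp2, chr3:142620553-142620652, plus strand: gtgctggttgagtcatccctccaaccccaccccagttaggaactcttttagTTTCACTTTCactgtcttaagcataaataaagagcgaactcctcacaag
Ddx60, chr8:61927987-61928086, plus strand: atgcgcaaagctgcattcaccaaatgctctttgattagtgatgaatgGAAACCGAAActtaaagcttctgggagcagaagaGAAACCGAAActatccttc
Socs1, chr16:10785567-10785666, minus strand: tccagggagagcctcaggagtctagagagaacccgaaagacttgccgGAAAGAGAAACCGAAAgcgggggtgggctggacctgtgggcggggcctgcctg
Irf1, chr11:53769874-53769973, plus strand: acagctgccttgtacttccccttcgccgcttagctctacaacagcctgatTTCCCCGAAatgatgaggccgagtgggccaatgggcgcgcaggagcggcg
Socs3, chr11:117969467-117969566, minus strand: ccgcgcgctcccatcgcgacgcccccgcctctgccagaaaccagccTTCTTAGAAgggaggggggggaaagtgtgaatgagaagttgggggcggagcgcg
Sbno2, chr10:80102703-80102802, minus strand: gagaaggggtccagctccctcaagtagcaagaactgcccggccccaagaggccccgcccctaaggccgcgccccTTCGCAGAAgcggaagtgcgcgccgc

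In Isg15 the capitals are 3 overlapping matches and in Socs1 they are 2, whereas Ifit3 and Ddx60 each hold 2 separate ones. Over windows from 250 bases before to 50 bases after the start, the response element core was in 254 of 8103 promoters matched to a tested gene (3.13%). It was in 32 of 70 promoters of genes that went on rising (45.7%) and in 16 of 91 of genes that began in the second hour (17.6%). Of promoters of genes that held, 9 of 56 (16.1%) carried it, and of those of genes that turned down or fell 1 of 20 (5%) and 2 of 36 (5.56%). The letters TTCNNNGAA were in 7.12% of all promoters, in 6 of 20 promoters of genes that turned down (30%), namely Socs3, Cish, Rasl11a, Sbno2, Zfp36 and Csrnp1, in 15 of 70 of genes that went on rising (21.4%), 9 of 56 of genes that held (16.1%), 7 of 91 of genes that began (7.69%) and 2 of 36 of genes that fell (5.56%). The third set of letters searched, GGGA, any 2 bases and TTCC as in NF-κB sites, was in 1.48% of all promoters, in 4 of genes that went on rising, 2 of those that began, 2 of those that held, 1 of those that fell and 0 of those that turned down. A match says only that the letters are there. Sbno2, Rasl11a and Csrnp1 were named after their values were seen.

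Among the genes that went on rising, the steepest second hour belonged to Rsad2, which encodes viperin, a radical-SAM enzyme that makes a chain-terminating nucleotide against viral polymerases. Rsad2 stood at 0.302, 21.4, 199, 311 and 281 RPKM at 0, 1, 2, 4 and 6 h. Its 2 h level was 9.28 times the 1 h level (95% exact interval 9.11 to 9.46, for counting error only), a log2 difference of 3.16. Cmpk2, the neighbouring kinase gene that supplies viperin's substrate, took the same course at 0.147, 15.8, 133, 185 and 179 RPKM (2.99). Both were highest at 4 h. Mx1, a dynamin-like GTPase that blocks viral nucleoproteins, went from 0.186 to 47.0 and 215 RPKM and on to 315 RPKM at 6 h (2.17). Mx2 went from 0.164 to 41.7 and then 88.1 RPKM, and its difference of 1.06 fell just under the 2-fold line after GC centring.

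The IFIT genes, whose proteins bind viral RNA that lacks host cap marks, were all higher at 2 h (4 of 4, median 2.60). For this and every later list count, the shares over all genes tested were 2.27% higher and 0.846% lower. Ifit2 showed the latest course of them at 2.59, 19.996, 176, 614 and 809 RPKM (difference 3.07). Ifit3 stood at 1.38, 76.0, 437, 1099.5 and 1262 RPKM (2.51). Ifit1 had the largest first hour of the 4, from 3.14 to 374 RPKM. It was at 1276 RPKM at 2 h, its highest naive level, and at 952 RPKM at 6 h (1.77). Ifit3 may share reads with the closely related I830012O16Rik, which stood at 43.3 and 285 RPKM, so the split between them is uncertain.

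All 10 guanylate-binding protein genes of the list, GTPases that coat the vacuoles of intracellular pathogens, were higher at 2 h (median 2.10). Gbp2 was the most abundant, with 2.41, 73.7, 437, 619 and 810 RPKM (2.55). Gbp5, which had almost no transcript at 0 h, stood at 0.025, 2.06, 16.6, 22.7 and 26.8 RPKM (2.53). Gbp8 had the smallest difference, at 0.249 and 1.55 RPKM (1.03, and 0.92 GC-centred), levels at which the added 1 RPKM understates the change. The immunity-related GTPases, which act on the same vacuoles, were also all higher (10 of 10, median 2.05), and all 10 had already risen in the first hour. Iigp1 went from 1.43 to 103 and 345 RPKM, Igtp from 1.94 to 59.5 and 233 RPKM, and Gm12250 from 0.127 to 2.98 and 28.6 RPKM. The near-identical Tgtp1 and Tgtp2 stood at 41.7 and 35.2 RPKM at 1 h and at 213 and 178 RPKM at 2 h, and their split is uncertain for the same reason.

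Cxcl10, a chemokine that draws T cells through the receptor CXCR3, had the second-largest first hour of all genes and went on to a difference of 2.73, with 0.631, 126, 840, 1051 and 1101 RPKM. The other CXCR3 ligands were still low. Cxcl9 stood at 0.807 and 2.65 RPKM (1.02, and 0.84 GC-centred) and Cxcl11 at 0.130 and 0.891 RPKM. Ccl5 stood at 9.73 and 12.7 RPKM at 1 and 2 h before its 74.7 RPKM at 4 h. Tnfsf10, the death ligand TRAIL, stood at 0.097, 3.40, 22.6, 25.2 and 19.3 RPKM (2.42), and Cd274, the inhibitory ligand PD-L1, was at 11.8 and 40.4 RPKM (1.69).

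Usp18, a deISGylase that also blocks the IFN receptor, stood at 0.398, 50.7, 179, 287 and 280 RPKM (1.80). It was the only 1 of 13 listed feedback inhibitors that was higher at 2 h, and 2 were lower, against 2.27% and 0.846% of all genes. In the ISG15 pathway 4 of 5 tested genes were higher (median 1.90). Isg15, the ubiquitin-like modifier, stood at 0.608, 15.9, 62.0, 195 and 254 RPKM, and its activating enzyme Uba7 at 5.01 and 23.1 RPKM (2.001). Herc6, the mouse ligase of the pathway, had a larger step in the second hour than in the first, with 1.24, 4.12, 36.0, 80.2 and 99.6 RPKM (2.85). Ube2l6, the conjugating enzyme, was the exception at 28.5 and 51.7 RPKM (0.84).

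Of 13 RNA sensors and partners, 10 were higher (median 1.39). Ifih1, the sensor MDA5, stood at 1.49, 10.5, 61.0, 114 and 125 RPKM (2.43), and Tlr3, the endosomal receptor for double-stranded RNA, at 14.1 and 64.0 RPKM at 1 and 2 h (2.11). Adar, the editing enzyme, had a smaller step from 22.2 to 50.6 RPKM (1.16). The adaptor gene Mavs stood at 14.5 and 11.03 RPKM, within 2-fold. In the list of PARP genes and Dtx3l, 6 of 11 were higher, and Parp14, a mono-ADP-ribosyl transferase, had the largest step with 1.72, 19.2, 119, 129 and 116 RPKM (2.57).

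**Figure D3:**
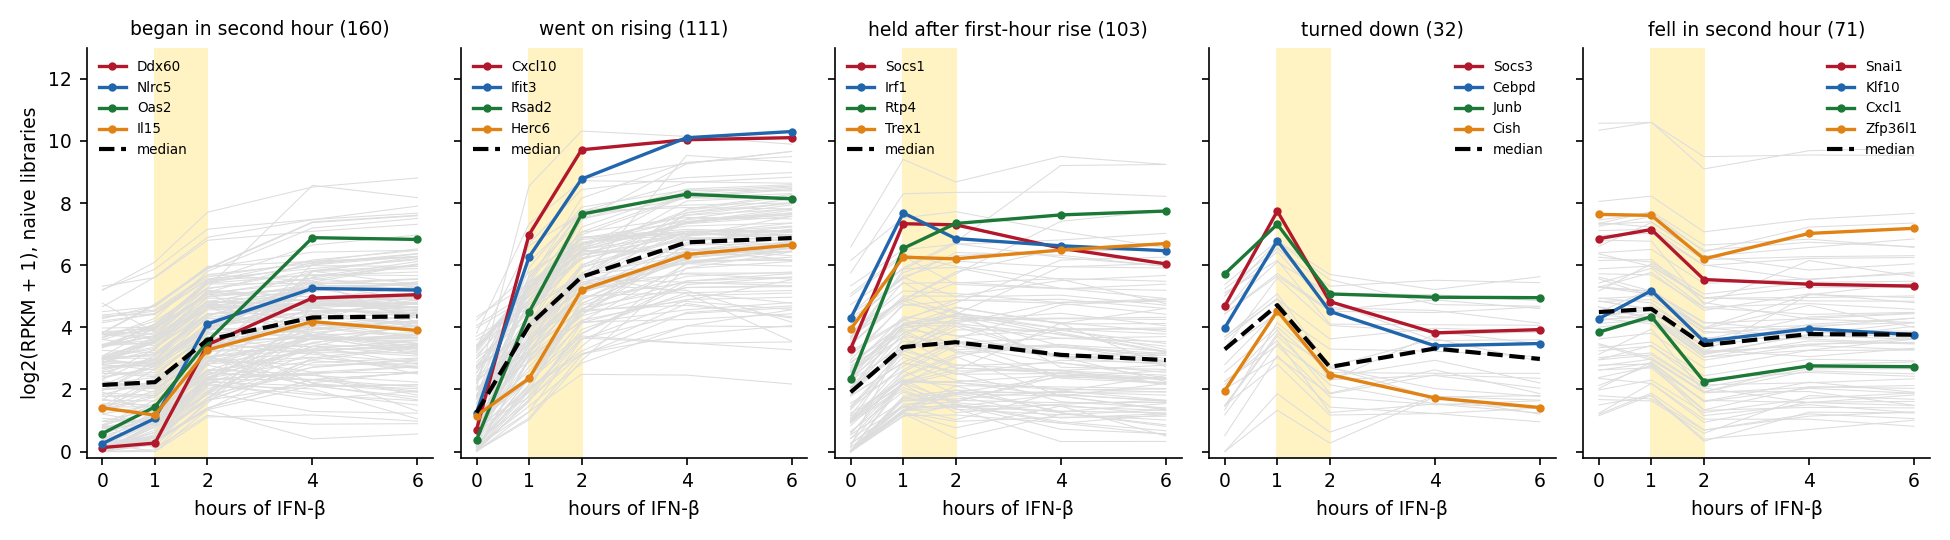
Level as log2(RPKM + 1) in the 5 naive libraries against hours, 1 panel for each of the 5 main classes, with every gene in grey, 4 named genes in colour, the class median dashed and the second hour shaded. Medians of the genes that began or went on rising keep going up to 4 h, while Socs3, Cebpd and Cish stand below their 0 h level at 4 h and at 6 h.

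The genes that began in the second hour included several with about 1 RPKM or less at 1 h. At such levels the added 1 RPKM shrinks the first step. Ddx60, Nlrc5, Sp100, Pydc3, Gbp1 and Ccrl2 are thus in this class although their 1 h level was above their 0 h level. Ddx60, a helicase-like antiviral gene, stood at 0.095, 0.209, 9.83, 29.8 and 32.2 RPKM. Its 1 h value rested on 188 counts and its 2 h value on 6377, a ratio of 47.0 (95% exact interval 40.6 to 54.6) and a log2 difference of 3.16. Nlrc5, the transactivator of MHC class I genes, went from 0.198 and 1.097 RPKM to 16.3 RPKM at 2 h (3.04) and had reached 37.1 RPKM by 4 h. These 2 genes stood apart from the rest of the class, in which the next difference was 2.16, that of Sp100. Sp100, a scaffold of PML nuclear bodies, stood at 0.124, 0.926, 7.60, 64.3 and 81.1 RPKM, so most of its rise still lay ahead at 2 h.

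Il15, a cytokine for natural killer and memory T cells, and Il15ra, the receptor chain that presents it, began in the same hour. Il15 stood at 1.65, 1.26, 8.69, 17.2 and 13.9 RPKM (2.10) and Il15ra at 1.48, 2.38, 13.3, 13.4 and 9.02 RPKM (2.08). Pcgf5, a Polycomb complex subunit, went from 2.41 and 2.64 to 15.1 RPKM (2.15). Pydc3, a pyrin-only gene, went from 0.007 and 0.734 to 6.57 RPKM and to 76.4 RPKM at 6 h (2.13). Gbp1 had no read at 0 h and stood at 0.929 and 7.38 RPKM at 1 and 2 h (2.12), and Ccrl2, an atypical chemoattractant receptor, at 0.030, 0.818 and 6.04 RPKM (1.95). The rule that names genes also took Oas2, Gm8989, Gm8979 and Phf11a in this class, with differences between 1.94 and 2.10.

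The OAS genes, whose products make oligoadenylates on sensing double-stranded RNA, lay across both rising classes. Of 8 members 7 were higher at 2 h (median 1.73), 3 of them in the class that began in that hour. Of that class, Oas2 and Oas3 were already above their 0 h level at 1 h. Oas2 stood at 0.498, 1.72, 10.7, 117 and 113 RPKM, and Oas3 at 0.032, 0.373, 2.14, 23.7 and 27.0 RPKM. Both were thus still far below their 4 h level at 2 h. Oasl2, an OAS-like gene, was further on with 1.27, 21.2, 91.5, 320 and 365 RPKM (2.06). Oas1a and Oas1g, which may share reads, stood at 9.45 and 6.29 RPKM at 2 h, and Oas1c at 2.75 RPKM was the member within 2-fold (0.76).

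Antigen presentation genes were at an early point of their course. Among MHC class I genes 6 of 17 were higher (median 0.79), against 2.27% of all genes, and 4 of the 6 began in the second hour. H2-K1, a classical heavy chain, stood at 9.94, 13.3, 37.7, 379 and 288 RPKM (1.44). The light chain gene B2m was at 1352 and 1474 RPKM (0.12) before its 5250 RPKM at 4 h. Of the peptide-loading and immunoproteasome genes 6 of 10 were higher. Psmb8, a catalytic subunit of the immunoproteasome, was at 9.77 and 34.3 RPKM (1.71) and the peptide transporter gene Tap1 at 39.2 and 94.3 RPKM (1.25). The trimming enzyme gene Erap1 was at 7.01 and 15.2 RPKM (1.02, and 0.65 GC-centred).

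Several genes that were higher at 2 h are in no list and were named after their values were seen. Katna1, a microtubule-severing subunit, stood at 6.40, 8.59, 35.7, 30.5 and 20.02 RPKM (1.94), and Dcp2, the decapping enzyme of mRNA decay, at 6.63, 10.7, 34.2, 27.4 and 24.3 RPKM (1.58). Etv6, a transcriptional repressor, stood at 11.2, 9.62, 23.8, 17.5 and 13.8 RPKM (1.23), and Chl1, a neural adhesion molecule, at 0.678, 1.19, 5.88, 3.40 and 2.18 RPKM (1.65). These 4 were highest at 2 h, as were 35 of the 160 genes that began in the second hour, whereas 79 were highest at 6 h. Xdh, xanthine dehydrogenase, was of the later kind with 11.7, 18.6, 54.6, 146 and 181 RPKM (1.51). Of the 111 genes that went on rising, 78 were highest in the 6 h library, 24 in the 4 h library and 9 in the 2 h library.

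The pathway's own components split. Of 12 tested genes for the receptor, JAK kinases and STATs with Irf9, 3 were higher and 0 lower, against 2.27% and 0.846% of all genes. Stat2 stood at 9.30, 98.1, 201, 244 and 256 RPKM (1.03) and Jak2 at 9.28, 14.4, 33.5, 42.4 and 46.3 RPKM (1.17, and 0.91 GC-centred). Irf9 had risen in the first hour and held, with 11.6, 53.3 and 78.3 RPKM (0.55). The receptor chains Ifnar1 (15.6 and 16.2 RPKM) and Ifnar2 (77.7 and 67.0 RPKM) and the kinases Jak1 (41.9 and 50.2 RPKM) and Tyk2 (6.41 and 5.08 RPKM) stayed within 2-fold. Among IRF genes, Irf7, which amplifies type I interferon production, was at 2.22, 32.4, 72.2, 267 and 295 RPKM (1.13), and Irf5 at 1.89 and 6.44 RPKM at 1 and 2 h (1.36).

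Irf1 and Socs1 were among the 103 genes that rose in the first hour and held. Irf1, a transcription factor whose promoter carries the gamma-activated letters shown above, stood at 18.5, 205, 115, 97.8 and 87.4 RPKM (-0.83). Socs1, a SOCS-box inhibitor of JAK kinases, stood at 8.90, 161, 157, 92.6 and 65.0 RPKM (-0.04). Rtp4, a receptor transporter protein gene, differed from them in going on to 213 RPKM at 6 h from 4.01, 92.1 and 161 RPKM (0.80). Trex1, the exonuclease that degrades cytosolic DNA, stood at 14.3, 75.5 and 72.8 RPKM (-0.05). The chemokine gene Ccl2 went from 95.1 to 678 and 409 RPKM (-0.73), Ccl7 from 52.8 to 314 and 324 RPKM (0.04), and Trim25, which ubiquitinates RIG-I, from 10.0 to 57.0 and 103 RPKM (0.84). Of the 103 genes in this class, 37 were highest at 1 h and 31 at 2 h, and 22 were short single-exon RNAs (176 of all genes tested).

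Socs3, which encodes the inhibitor of gp130 cytokine signalling, had the largest fall of all genes. It stood at 24.7, 213, 27.4, 13.2 and 14.2 RPKM at 0, 1, 2, 4 and 6 h, high in the 1 h library only. Its 2 h level was 0.129 times the 1 h level (95% exact interval 0.126 to 0.132), a log2 difference of -2.91 and of -2.55 after GC centring. Cish, another SOCS family inhibitor, took the same form at 2.91, 22.1, 4.57, 2.31 and 1.68 RPKM (-2.05). Cebpd, a bZIP transcription factor of the acute phase, stood at 14.8, 110, 21.8, 9.61 and 10.2 RPKM (-2.28), and Bcl3, a nuclear IκB protein, at 21.9, 94.4, 27.2, 10.9 and 11.1 RPKM (-1.76). All 4 were below their 0 h level at 4 h.

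Junb, an AP-1 subunit, stood at 51.8, 159, 32.7, 30.3 and 30.0 RPKM (-2.24), below its 0 h level from 2 h on. Bhlhe40, a basic helix-loop-helix repressor, stood at 31.6, 85.4, 23.8, 22.3 and 16.6 RPKM (-1.80). Nr4a1, an orphan nuclear receptor, was at 11.2, 29.7, 3.88, 12.7 and 13.4 RPKM (-2.65), low at 2 h and back near its 0 h level later. Egr2 was at 3.80, 10.9, 1.39, 1.89 and 1.37 RPKM (-2.31), and Ier3, a regulator of survival, at 33.6, 70.4, 16.2, 15.9 and 15.8 RPKM (-2.05). Dusp5, a phosphatase of ERK, stood at 9.07, 47.2, 15.7, 13.5 and 10.1 RPKM (-1.53), and Sbno2 at 31.1, 106, 45.4, 25.6 and 24.6 RPKM (-1.21, and -0.85 GC-centred). Jun (91.5 and 39.1 RPKM), Zfp36 (51.9 and 22.4 RPKM), Cebpb (109 and 51.0 RPKM) and Has1 (12.9 and 5.57 RPKM) turned down too, but their GC-centred differences of -0.99, -0.97, -0.61 and -0.81 missed 2-fold.

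The class rule puts the 1 h level of all 32 genes that turned down above their 0 h and 2 h levels. In 31 of the 32 it was also above the 4 h and 6 h levels. Of the 32 genes, 13 were below their 0 h level at 2 h and 18 were below it at 6 h. Short single-exon RNAs made up 5 of the 32, among which Rmrp and its relatives form a group of their own. Rpph1, the RNA of ribonuclease P, stood at 11.9, 32.8, 5.65, 11.4 and 6.54 RPKM, and Rmrp, the RNA of ribonuclease MRP, at 5.98, 21.9, 4.30, 6.69 and 3.63 RPKM. Rprl3, a related RNA gene, stood at 14.0 and 2.69 RPKM at 1 and 2 h. In pretreated cells these 3 went from 41.8, 30.6 and 21.2 RPKM at 1 h to 7.08, 4.58 and 2.63 RPKM at 2 h, and were highest at 0 h.

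Of the 71 genes that fell in the second hour, 48 were highest at 1 h and 21 at 0 h, so many had a first step up that missed 2-fold. The lowest difference was that of Cxcl1, a neutrophil chemokine, with 13.4, 19.4, 3.77, 5.77 and 5.65 RPKM (-2.09). Egr1, a zinc-finger immediate early factor, was at 111, 108, 25.7, 70.0 and 48.9 RPKM (-2.04), low mainly at 2 h, and Egr3 at 7.77, 14.4, 2.78, 2.82 and 1.81 RPKM (-2.03). Snai1, a repressor of epithelial genes, stood at 115, 141, 45.5, 40.9 and 39.2 RPKM (-1.61), and Klf10 at 18.4, 35.3, 10.7, 14.5 and 12.6 RPKM (-1.63). Fos was low throughout, at 3.38, 5.94, 1.23, 1.85 and 1.38 RPKM (-1.63). Zfp36l1, which binds AU-rich elements and speeds mRNA decay, stood at 198, 193, 72.7, 129 and 145 RPKM (-1.40), and Myc at 38.2, 53.5, 22.4, 32.9 and 26.7 RPKM (-1.22).

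Not all of these falls were of regulatory genes. Rplp1, a ribosomal stalk protein, stood at 1298, 1554, 548, 822 and 869 RPKM (-1.50), while 0 of the 21 listed ribosomal protein genes were 2-fold apart (median -0.17). Rps28, named after its values were seen, stood at 174, 204, 85.5, 149 and 163 RPKM (-1.25), and in pretreated cells at 179 and 79.8 RPKM at 1 and 2 h. H1fx (71.5 and 26.9 RPKM), a linker histone variant, Atoh8 (23.1 and 8.29 RPKM) and Ier2 (22.7 and 8.02 RPKM) differed by -1.38 to -1.40, and by -0.92 to -0.95 after GC centring. The class rule puts all 71 genes below their 0 h level at 2 h, and 65 were below it at 6 h.

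By list, 13 of 28 immediate early genes were lower at 2 h and 1 was higher, against 0.846% and 2.27% of all genes, with a median of -0.94. Fosl1, Fosl2, Ier2, Jun and Zfp36, 5 of the 13, missed 2-fold after GC centring. The 1 higher was Ctgf, a matricellular protein gene, at 20.1, 22.6, 50.8, 44.2 and 16.7 RPKM (1.13). Atf3 held at 8.28 and 14.1 RPKM, and Dusp1, a phosphatase of p38 and JNK, had fallen in the first hour from 36.5 to 10.2 RPKM and stood at 15.3 RPKM at 2 h. Of 17 IL-6 family response genes, 10 had risen in the first hour, against 2.02% of all genes. Of these 10, 6 turned down, namely Socs3, Bcl3, Cebpb, Cebpd, Has1 and Junb, against 32 of all 12168 genes tested. Cebpb and Has1 missed 2-fold after GC centring. Osmr, a receptor chain of the IL-6 family, stood instead at 59.1, 116 and 163 RPKM (0.49). Among 18 NF-κB subunits and targets 2 were lower, Bcl3 and Ier3, against 0.846% of all genes. Bcl3 is counted in the IL-6 family list too. Nfkbia stayed at 47.9 and 41.8 RPKM.

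**Figure D4:**
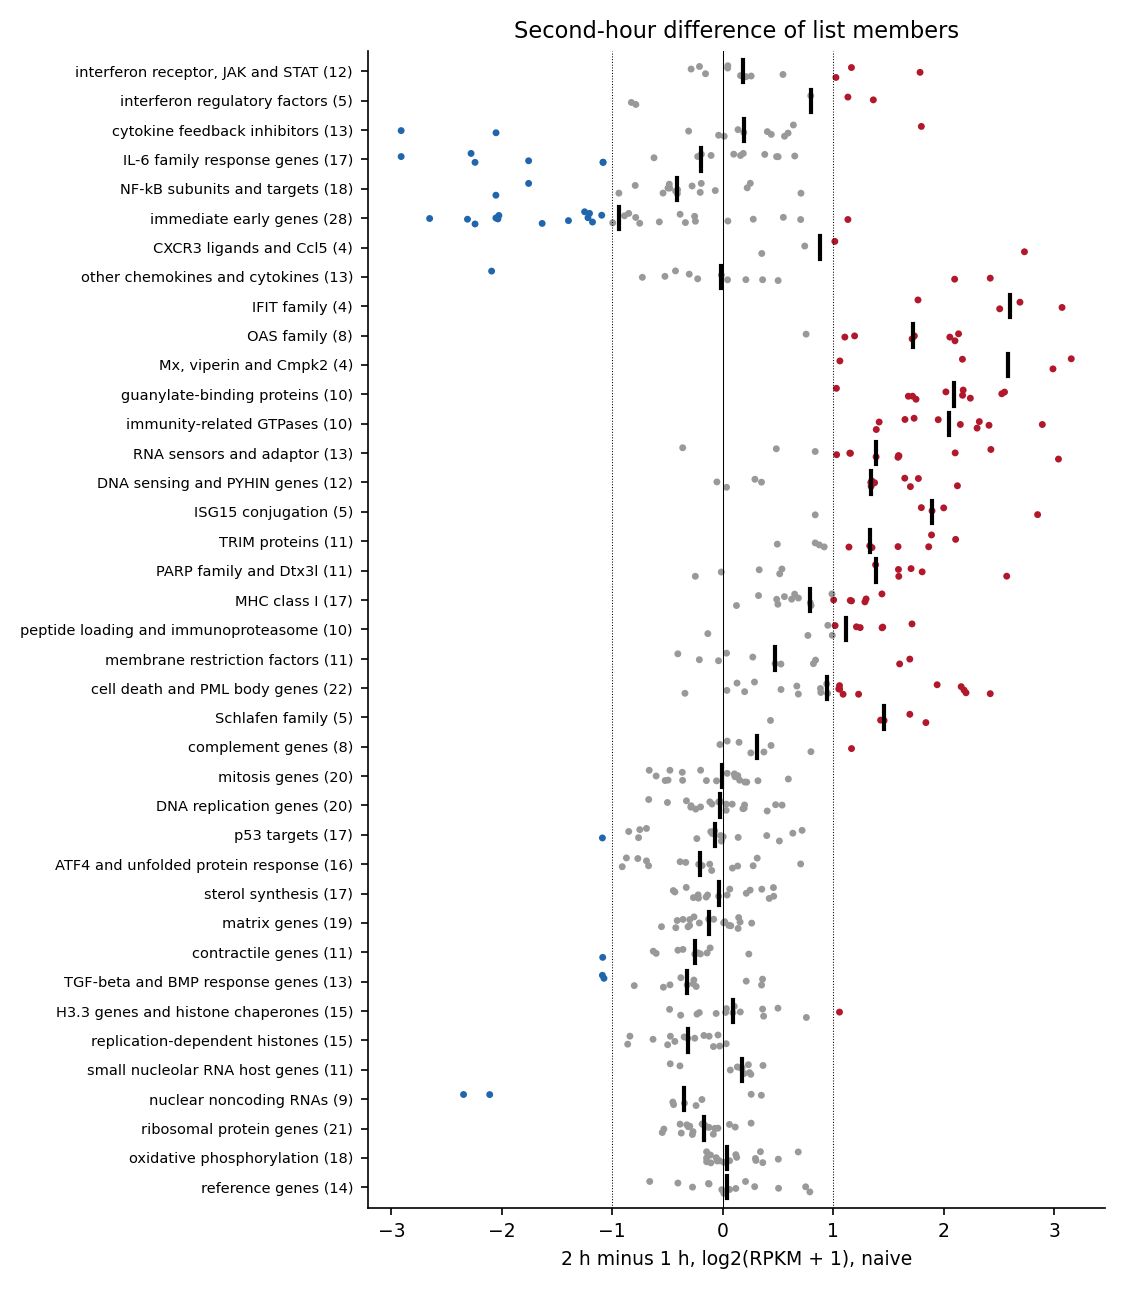
Second-hour difference, 2 h minus 1 h on log2(RPKM + 1), of each member of 39 gene lists (number tested in brackets), red at 2-fold higher, blue at 2-fold lower, with a black bar at the median. The IFIT, GBP and immunity-related GTPase members all lie right of the 2-fold line, 13 of 28 immediate early genes lie left of it, and mitosis, replication, sterol, matrix and ribosomal protein genes lie between the lines.

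The remaining antiviral lists moved one way as far as they moved. Of the PYHIN and DNA-sensing genes 8 of 12 were higher, led by Pydc3, whereas the sensor's adaptor gene Tmem173 (STING) stood at 58.2 and 59.7 RPKM. Mndal (48.6 and 125 RPKM, difference 1.34) and Mnda (37.7 and 97.7 RPKM, 1.35) were at 0.86 and 0.95 after GC centring. TRIM genes were higher in 7 of 11, Schlafen genes in 4 of 5, cell death and PML body genes in 10 of 22, membrane restriction factors in 2 of 11 and complement genes in 1 of 8, against 2.27% of all genes, each with 0 lower against 0.846%. In the last 2 lists these counts are small. The 2 higher genes in the membrane list were Cd274 and Samhd1, a phosphohydrolase that depletes nucleotides and was listed with them (67.7 and 208 RPKM, 1.602), while Ifitm3, which blocks viral entry, stood at 1018.5 and 880 RPKM. Trim30d, Sp140, Casp4 and Casp12 were higher by 1.05 to 1.14, and after GC centring by 0.67, 0.996, 0.81 and 0.59.

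Other lists had few or no members past 2-fold, and at the shares of 2.27% higher and 0.846% lower over all genes a list of 20 genes would hold fewer than 1, so the counts say little of each list. Of 20 mitosis genes, 20 DNA replication genes, 17 sterol synthesis genes, 19 matrix genes, 18 oxidative phosphorylation genes and 14 reference genes, 0 were 2-fold apart, with medians between -0.13 and 0.04. Among ATF4 and unfolded protein response genes (16), replication-dependent histones (15) and small nucleolar RNA host genes (11) the count was also 0. The p53 targets had 1 of 17 lower (Gadd45a, 17.5 and 7.70 RPKM), the contractile genes 1 of 11 (Lmod1, 6.88 and 2.71 RPKM, difference -1.09 and -0.95 GC-centred) and the TGF-beta and BMP response genes 2 of 13. Bmp4, of the last list, stood at 32.5 and 14.9 RPKM (-1.08, and -0.93 GC-centred). The list of H3.3 genes and chaperones had 1 of 15 higher, the chaperone Daxx at 53.5 and 113 RPKM (1.06). The 292 Zfp genes had 2 higher and 3 lower, and their median of 0.16 was 0.03 after GC centring.

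Set beside the same hour in pretreated cells, which share no library with the naive pair but started from higher levels of many interferon-induced transcripts, the second hour looked alike for many higher genes and for fewer of the lower ones. In pretreated cells 240 genes (1.97%) were higher at 2 h than at 1 h and 106 (0.871%) were lower. Of the higher genes 149 were common, 54.0% of the naive and 62.1% of the pretreated set. Of the lower genes 23 were common, 22.3% and 21.7%. The GC trend runs the same way in both arms and its part in these overlaps was not tested. With GC centring 194 genes (1.63%) were higher and 66 (0.554%) lower in pretreated cells, and 104 higher genes were common, 49.5% of the naive and 53.6% of the pretreated set. Of the lower genes 9 were then common, 18.4% and 13.6%. In either direction, 0 genes were 2-fold apart in opposite ways.

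Ddx60 went from 8.72 to 37.7 RPKM in the pretreated second hour (1.99) and Ifit2 from 119 to 502 RPKM (2.07), both steps smaller than the naive ones of 3.16 and 3.07. Il15 had a difference of 2.11 there, from 3.83 to 19.8 RPKM, and 2.10 in naive cells. H2-K1, at 428 and 425 RPKM (-0.01), and Oas2, at 67.0 and 93.2 RPKM (0.47), were already high. Of the genes that turned down in naive cells, 7 of 32 were lower in the pretreated second hour. Socs3 was at 15.9 and 9.87 RPKM there, Cebpd at 16.2 and 13.4, Junb at 40.5 and 27.9 and Cish at 3.92 and 2.95 RPKM, without the high 1 h level of naive cells. Nr4a1 did have it, with 10.3, 42.3 and 5.93 RPKM at 0, 1 and 2 h (-2.64), as did Egr2 in part, with 2.22, 4.91 and 1.92 RPKM (-1.02).

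**Figure D5:**
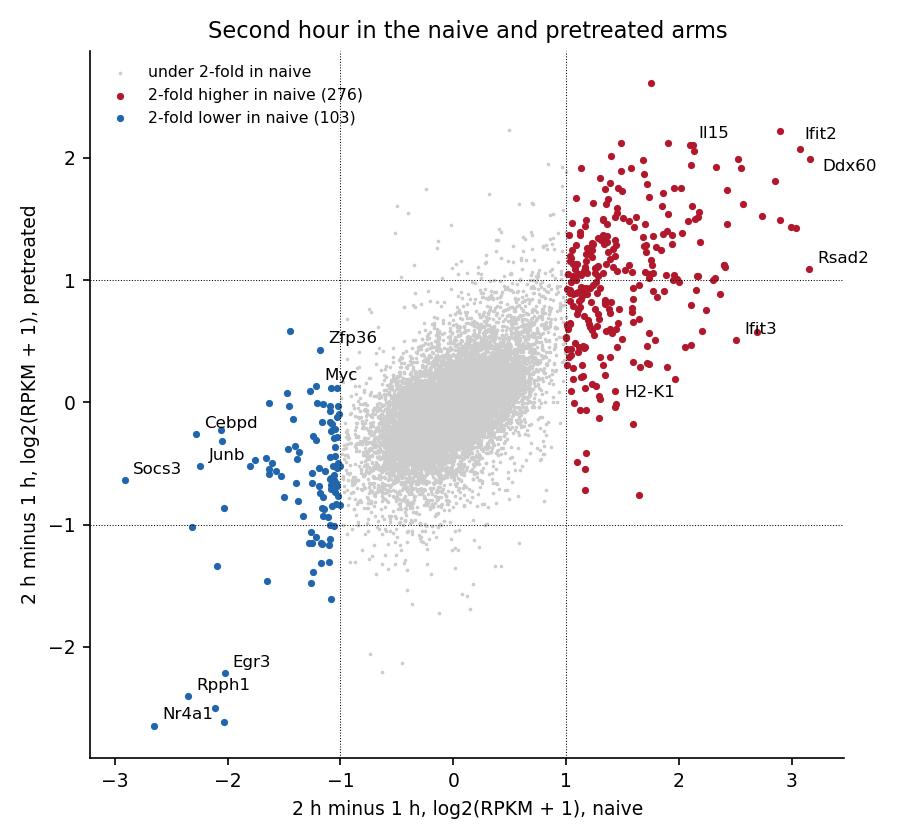
Second-hour difference, 2 h minus 1 h on log2(RPKM + 1), of each gene in naive (x axis) and pretreated cells (y axis), with genes 2-fold higher (276) or lower (103) in naive cells coloured and dotted lines at 2-fold. Ddx60 and Ifit2 are high on both axes, Nr4a1 and Rpph1 are low on both, and Socs3, Cebpd and Junb are low in naive cells but within 2-fold in pretreated cells.

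The genes differed by class in features that the classes did not use. The median transcribed span was 27.5 kb for genes that began in the second hour and 15.3 kb for genes that went on rising, against 6.59 kb for those that held, 4.80 kb for those that turned down and 5.79 kb for those that fell. All genes tested had a median of 20.3 kb. The median number of exons was 8, 7, 3, 2.5 and 4 in the same order, and 8 over all genes. Ddx60 spans 110 kb with 39 exons and Nlrc5 54.5 kb with 49, while Socs3 spans 3.28 kb with 2 and Cebpd and Junb have 1 exon each. GC content differs between the classes as well, so span and base composition cannot be told apart here.

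The higher genes also lay together. Of 275 with a single position, 122 (44.4%) had another higher gene within 100 kb, against 4.72% of the other genes, and among lower genes 16 of 103 (15.5%) had another lower one, against 3.34%. There were 12 intervals with 4 or more higher genes, each of which starts and ends on a higher gene by construction. On mm10, all 6 tested genes of the Ifit interval at chr19:34550694-34650009 were higher. So were all 5 of the Gbp interval at chr3:142496934-142638008, all 6 of the second Gbp interval at chr5:105014153-105346472 and all 9 of the PYHIN interval at chr1:173591957-174031755. The interval at chr11:48865249-49135387 from Irgm1 to Ifi47 had 9 of 9, and that at chr17:34182099-34216321 with Psmb9, Tap1, Psmb8 and Tap2 had 4 of 4. Not all were complete: the Phf11 interval on chromosome 14 had 6 of 7, the Trim interval on chromosome 7 had 5 of 6, the Schlafen interval on chromosome 11 had 4 of 5 and the H2-T interval on chromosome 17 had 5 of 9. The Gvin interval on chromosome 7 had 6 of 6. In the Oas interval at chr5:120730333-120907525, Oas1c and Oas1h were the 2 of 7 that stayed within 2-fold. Several of these neighbours are members of 1 gene family and may share reads, which was not measured, so they need not be independent measurements.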

How the data were processed

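RNA from 10 MEF libraries was sequenced on an Illumina HiSeq2000 per the labels. Tools listed in the submitters' processing notes are TopHat, Bowtie and Cufflinks 1.2.1, with mm10 as the build, none with a stated role. Per the file headers, the deposited table gives a raw tag count and an RPKM value for each RefSeq transcript and library. The RPKM values were computed by the authors, and the sources used here do not give the library scaling, the counting tool, the strand use or the treatment of multiply aligned reads. Whether near-identical or overlapping genes share reads in these counts is therefore unknown. Over 7630 transcripts, the ratio of count to RPKM was constant per library and transcript to within 0.000167 on the log2 scale.

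Of 30646 transcripts, 15 without a gene name (at most 0.0193% of a library's counts) were left out, and 1 transcript per symbol was kept, that with the highest mean RPKM over the 10 libraries. Genes needed at least 1 RPKM in at least 2 libraries. Differences were taken on log2(RPKM + 1), which understates the change of low genes, and called at 2-fold. With 1 library per group no test was made. Ratios of named genes carry exact (Clopper-Pearson) 95% intervals from the counts, for counting error only. The calls and intervals were computed with Python 3.11.15, pandas 2.3.3, numpy 2.4.6 and scipy 1.17.1.

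Members and the 40 gene lists were chosen with earlier results of these data known. Named genes were the 12 of each class with the largest second-hour difference (for genes that held, the 10 with the largest first-hour difference) among genes of at least 5 RPKM at 0, 1 or 2 h in naive cells, and members of a list beside it. Others are said to be named after their values were seen. Alternatives were pseudocounts of 0.1 and 5 RPKM, no filter, a filter of 5 RPKM, TMM scaling of the counts (edgeR 4.0.16) and median-ratio size factors (DESeq2 1.42.0, R 4.3.3). GC centring in 20 bins of transcript GC content, and leaving out single-exon RNAs spanning under 300 bases, were chosen after seeing the data. Transcript GC content was known for 97.9% of the genes. Promoters came from RefSeq (GRCm38.p6), within 100 bases of the transcript start in the table. A few list members are not reported here by name.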

Additional observations from a re-analysis of the deposited data

Results flagged for a closer look

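For 6 of the 165 named genes past 2-fold in the naive second hour, the pretreated second hour had the opposite sign. With 1 library per time these differences between the arms were not tested, and 4 of the pretreated values lie close to 0. Arid5a, a regulator of cytokine mRNA stability that was named after its values were seen, differed by -1.45 in naive and 0.59 in pretreated cells. Zfp36, an mRNA decay factor, differed by -1.18 and 0.43, and Myc by -1.22 and 0.13. Has1, a hyaluronan synthase, differed by -1.08 and 0.11, and the small RNA Rn4.5s by -1.47 and 0.08. H2-K1 differed by 1.44 and -0.01. After GC centring, the naive differences of Zfp36 and Has1 missed 2-fold.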

How the results depend on the processing

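No paired analysis was possible because each group has 1 library and the labels carry no replicate numbers; for the same reason no replicate could be left out. No named gene that was called changed direction under any alternative. Without a filter, with a filter of 5 RPKM and with TMM or median-ratio scaling, the counts of the comparison and of its classes stayed within 1.5 times, and 0 named calls were lost. With a pseudocount of 0.1 RPKM, 431 genes were higher and 194 lower at 2 h, 252 were lower in pretreated cells, 178 went on rising, 188 held, 146 fell in the second hour, 4 fell in both steps and 20 recovered. With 5 RPKM, 145 were higher and 47 lower, 123 and 22 in pretreated cells, 79 began, 64 went on rising, 46 held, 19 turned down, 28 fell and 2 recovered, and 38 of 165 named calls were lost. With GC centring 49 were lower, 66 in pretreated cells, 98 began, 19 turned down, 30 fell and 2 recovered, and 26 of 156 named calls were lost. Without short RNAs 1 recovered. The cause of these shifts was not tested. The share of calls that were higher was 72.8%, and 69.0% to 81.1% over the alternatives. Depth limits few of the calls: Ddx60 at 1 h rests on 188 counts. The lack of replicates limits all of them.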
